A study of Homo sapiens with 6 samples.

Results

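The tissue factor and plasminogen activation genes comprise 9 of the 46427 genes in the deposited gene table. F3 encodes tissue factor, TFPI and THBD encode brakes on coagulation, and TFPI2 encodes an inhibitor of plasmin and other proteases. PLAT, PLAU and PLAUR encode the plasminogen activators and the urokinase receptor, and F2R and F2RL1 encode protease-activated receptors. All 9 were taken by gene symbol from a gene table and a transcript table. They had been picked with the difference between control and co-treated cells in view, so that difference is given for them as a description. Whether they passed the test over all genes is stated once as a count, as support for nothing. All cells were MDA-MB-231/RR, a human triple-negative breast cancer line in its radioresistant form, grown in medium with serum and detached with trypsin-EDTA. The control group comprised 3 libraries with no treatment named in the labels, and the co-treated group comprised 3 libraries from cells given both melatonin, a hormone of the pineal gland, and ortho-topolin riboside (oTR), a cytokinin nucleoside. The sources used here give no dose, no exposure time and no account of how radioresistance arose, and neither compound alone was analysed here. The question behind the experiment was whether giving both agents shifts the RNA and metabolite make-up of such cells. Since no label ties the libraries to separate cultures, errors and p-values cover the spread between these libraries alone, and that spread may be technical.

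Tissue factor is a transmembrane receptor for coagulation factor VII. The complex it forms with the active factor starts coagulation and also cleaves the receptor encoded by F2RL1, known as PAR2, while thrombin, made further down the cascade, cleaves the receptor encoded by F2R, known as PAR1. Urokinase, encoded by PLAU, is held at the cell surface by its receptor and turns plasminogen into plasmin, a protease that dissolves fibrin and degrades matrix, and invasive breast cancer lines of this type are known for making both tissue factor and urokinase. Trypsin is itself an activator of PAR2, and all 6 libraries share the trypsin harvest.

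The upstream sequence of F3 is shown first because F3 stood furthest from its control level, and because genes of the AP-1 transcription factor family, which binds TGANTCA, are described further on. RefSeq start regions on GRCh38.p14 were matched for 6 of the 9 genes, and those of THBD, PLAT and F2R were not used here. The 152 bases that lie upstream of both deposited F3 transcripts, on the minus strand at chr1:94541858-94542009, hold TGANTCA at 2 places, in capitals. The first begins 223 bases and the second 210 bases before the RefSeq start of transcript variant 1.
F3 upstream: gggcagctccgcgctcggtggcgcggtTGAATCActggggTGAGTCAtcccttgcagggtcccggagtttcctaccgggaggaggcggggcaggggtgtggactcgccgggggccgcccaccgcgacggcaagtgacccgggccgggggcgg

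Within the 250 bases before the start, on either strand, TGANTCA was also found once for PLAUR and once for TFPI2, shown here with 10 bases on each side to set them against the F3 pair.
PLAUR, minus strand, 186 bases before the start: cacaactccaTGAGTCAgggccgagcc
TFPI2, minus strand, 87 bases before the start: tccccgtgcaTGAATCAgccacccctc
The same letters occurred in 6.57% of 35116 RefSeq start regions of that length. Of the genes that carry them here, F3 and PLAUR were lower and TFPI2 was higher in co-treated cells. The PLAUR distance counts from the start of variant 1, at 43670169. Deposited PLAUR variant 2 begins nearer the match, at 43670346, with the match at 43670349 to 43670355. The GC box GGGCGG lay in the F3, F2RL1 and TFPI2 regions and in the second of the 2 PLAU regions (42.6% of all regions). The first PLAU region held no GC box, and neither PLAU region held TGANTCA. Deposited PLAU transcripts begin at 73911132 or, for predicted model X1, at 73909182. The first region, at 73910360 to 73910609, directly precedes neither start. Both regions lie within the span of X1, and the bases upstream of X1 were not searched. The EGR site GCGGGGGCG lay in the regions of F3 and TFPI2 (4.72%), where in both it overlapped a GC box. The TEAD site GGAATG was found for F2RL1 (11.9%) and the NF-kB consensus for TFPI2 (5.21%). A match describes letters in this window and no more.

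The deposited estimated counts summed to between 50569611 and 72309015 per library. Of 7 genes listed as typical of this line, all 7 were above 1 TPM (the authors' length-corrected level, scaled to the same total in each library) in every library, with VIM at 2037 to 2694 TPM. PGR was listed at 0 in all 6 libraries, ESR1 and CDH1 did not pass 0.0139 and 0.0243 TPM, and KRT19, a keratin listed with epithelial genes, was at 137 to 181 TPM. The 5 endothelial markers summed to 0.724 to 0.825 TPM in controls and 0.920 to 1.15 TPM in co-treated libraries, and the 4 platelet markers to at most 0.120 and 0.287 TPM, with PF4 and PPBP at 0 throughout. Of 4 leukocyte markers only CD68, also a lysosomal gene, passed 1 TPM, at 30.5 to 37.9 TPM, and PTPRC was listed at 0. Endothelium and blood cells are known sources of several of the 9 genes in the body.

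In control cells the length-corrected levels ran over a wide range. F3 was the most abundant of the 9 at 573 ± 24.3 TPM (mean ± SD, n = 3, as for all such values), 207th among all genes by level. PLAU followed at 260 ± 7.39 TPM and PLAUR at 136 ± 1.43 TPM. F2RL1 at 94.5 ± 5.34 TPM and TFPI2 at 90.5 ± 4.32 TPM were neighbours whose libraries overlapped. TFPI stood at 53.8 ± 3.88, PLAT at 20.7 ± 1.39, F2R at 9.01 ± 0.213 and THBD at 5.60 ± 0.143 TPM, and no other pair of neighbours overlapped. The order differed in co-treated cells, where F2RL1 (146 ± 4.32 TPM) and TFPI2 (132 ± 9.60 TPM) stood above PLAUR (118 ± 6.13 TPM), the libraries of TFPI2 and PLAUR overlapping. F3 was still first at 285 ± 8.59 TPM and PLAU second at 221 ± 9.63 TPM, with no overlap between them.

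Values between libraries are given in CPM (estimated counts relative to library size, scaled by relative log expression), and log2 fold changes of co-treated against control carry the standard error (SE) of a fit over all tested genes. F3 (gene 2152, chromosome 1, 94529173 to 94541857 on GRCh38) was at 593, 643 and 627 CPM in the control libraries and at 284, 273 and 287 CPM in the co-treated libraries. Every co-treated library lay below every control library, and the spread within each group was small beside the gap. The log2 fold change was -1.14 ± 0.05, so the co-treated mean was 54.7% below the control mean. Among 1638 tested genes with at least 100 TPM in controls, no other had a lower log2 fold change, whereas among all 16557 tested genes 177 had one. That position was not tested, because F3 was picked for this difference. RNA from fewer F3-expressing cells and less F3 RNA per cell cannot be told apart in such bulk libraries.

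**Figure D1:**
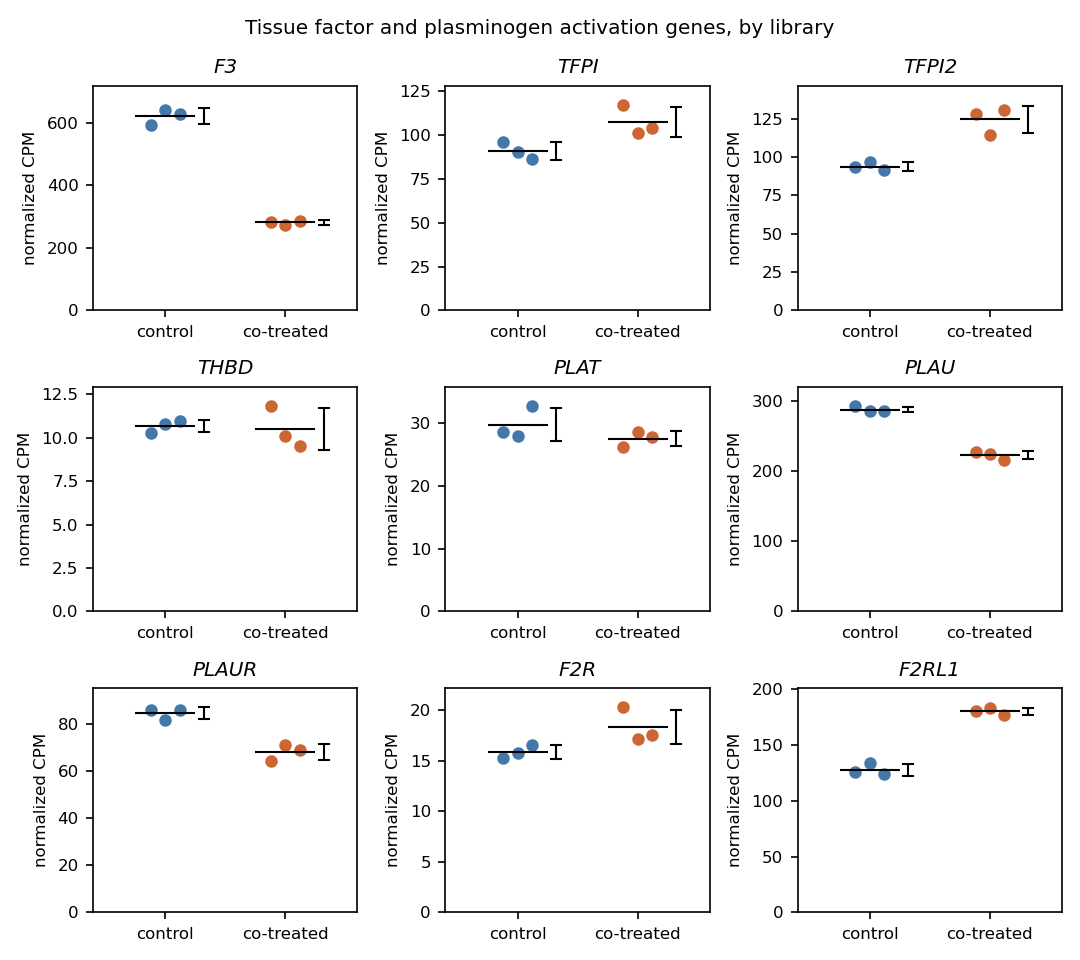
Normalized CPM (y axis, from 0) of each of the 9 genes in 3 control and 3 co-treated libraries; points are libraries, the horizontal line is the group mean and the bar beside it is 1 SD on each side. F3, PLAU and PLAUR lie lower and TFPI, TFPI2, F2R and F2RL1 higher in all co-treated libraries, while the groups of THBD and PLAT overlap.

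**Figure D2:**
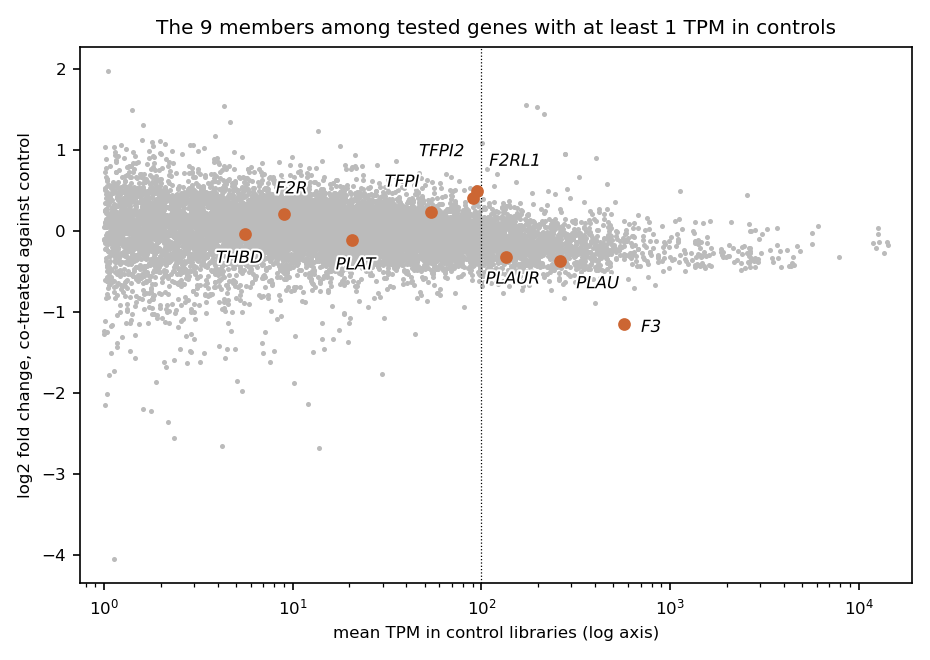
Mean TPM in controls (x axis, log scale) against log2 fold change (y axis) for tested genes with at least 1 TPM in controls (grey) and the 9 genes (orange). The dotted line marks 100 TPM; to its right F3 is the lowest point, at -1.14.

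TFPI and TFPI2 stood the other way, and THBD did not differ beyond its spread. TFPI (gene 7035, chromosome 2, 187464230 to 187554505) encodes tissue factor pathway inhibitor, a Kunitz-type protein that blocks factor Xa and the tissue factor complex. Its levels were 96.2, 90.4 and 86.2 CPM in controls and 117, 101 and 104 CPM in co-treated libraries, a log2 fold change of 0.24 ± 0.06. The lowest co-treated library was only a little above the highest control, so the gap between groups was narrow. TFPI2 (gene 7980, chromosome 7, 93885396 to 93890753), a related Kunitz-type inhibitor that is deposited in the matrix and acts on plasmin and other proteases, was at 93.2, 96.6 and 91.2 CPM in controls. It was at 128, 114 and 131 CPM in co-treated libraries, a log2 fold change of 0.41 ± 0.06 with a wider gap. THBD (gene 7056, chromosome 20, 23045633 to 23049672) encodes thrombomodulin, the thrombin receptor that turns thrombin toward protein C activation. It was at 10.3, 10.8 and 10.96 CPM in controls and 11.8, 10.1 and 9.52 CPM in co-treated libraries. Here the groups overlapped and the log2 fold change, -0.03 ± 0.09, was smaller than its error.

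Within single libraries the balance of tissue factor to its inhibitor was read as a ratio of TPM. F3 transcripts exceeded TFPI transcripts 9.57-, 11.2- and 11.3-fold in the control libraries and 3.89-, 4.34- and 4.44-fold in the co-treated libraries. Against TFPI2, which acts on plasmin and other proteases, the excess was 6.33 ± 0.244-fold in controls and 2.16 ± 0.103-fold in co-treated cells. Neither ratio overlapped between the groups, and F3 stayed the more abundant transcript in every library.

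RNA of both PLAU and its receptor gene PLAUR was lower in co-treated cells, while protein at the cell surface was not measured here. PLAU (gene 5328, chromosome 10, 73909182 to 73917497) was at 293, 285 and 286 CPM in controls and 227, 225 and 216 CPM in co-treated libraries, a log2 fold change of -0.37 ± 0.04. The 3 co-treated libraries lay close together and well below the controls. PLAUR (gene 5329, chromosome 19, 43646095 to 43670346), the receptor anchored in the outer membrane leaflet by a lipid, was at 85.9, 81.7 and 85.9 CPM in controls and 64.1, 71.0 and 69.0 CPM in co-treated libraries. Its groups did not overlap either, with a log2 fold change of -0.31 ± 0.05. The PLAU to PLAUR ratio in TPM was 1.91 ± 0.0479 in controls and 1.88 ± 0.167 in co-treated cells, with overlapping libraries. PLAT (gene 5327, chromosome 8, 42174718 to 42207565), which encodes tissue-type plasminogen activator, the form that acts mainly on fibrin, was at 28.7, 27.9 and 32.8 CPM in controls. It was at 26.2, 28.7 and 27.8 CPM in co-treated libraries, so the groups overlapped, and its log2 fold change was -0.11 ± 0.07. PLAU exceeded PLAT 12.6 ± 1.10-fold in controls and 10.5 ± 0.653-fold in co-treated cells. The groups nearly touched, at 11.31-fold in the lowest control library and 11.28-fold in the highest co-treated library.

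The receptors for thrombin and for trypsin-like proteases among the 9 were both at higher mean levels in co-treated cells, F2RL1 by more than F2R. F2RL1 was at 126, 134 and 124 CPM in controls and 180, 183 and 177 CPM in co-treated libraries, a log2 fold change of 0.50 ± 0.05. Its groups were far apart for their spread, second only to F3 among the 9 by size of the log2 change. F2R was at 15.3, 15.8 and 16.6 CPM in controls and 20.3, 17.2 and 17.6 CPM in co-treated libraries, a log2 fold change of 0.21 ± 0.08. Co-treated replicate 1 was the high library, and the other 2 lay just above the controls. The genes lie near each other on chromosome 5, F2R at 76716126 to 76735770 and F2RL1 at 76819030 to 76835315 (GRCh38). F2RL1 transcripts exceeded F2R transcripts 10.5 ± 0.694-fold in controls and 12.9 ± 1.19-fold in co-treated cells.

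All 9 genes passed the filter on low counts. With the threshold at 0.05 on the adjusted p (Benjamini-Hochberg over every tested gene, from edgeR's quasi-likelihood test), 6 of the 9 were called, 3 higher (TFPI, TFPI2, F2RL1) and 3 lower (F3, PLAU, PLAUR), and F2R, THBD and PLAT were not, where 33.7% of all 16557 tested genes were called, 16.6% higher and 17.1% lower. The groups did not overlap for 4 genes that were higher and 3 that were lower, against 23.3% and 24.1% of all tested genes, or 47.4% in either direction. The genes were picked on this contrast, so nothing is read from these counts. The median log2 fold change of the 9 was -0.03, beside 0.00 for all tested genes. Fits to log2 TPM of the same 16557 genes put their median at 0.09 to 0.12, depending on the pseudocount, and there PLAT and THBD lay above 0, at 0.017 and at up to 0.10. THBD also lay above 0 with library size alone, at 0.028, and without co-treated replicate 3, at 0.038. The other 7 kept their direction under all 17 alternatives.

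F3 has 2 deposited transcripts. Variant 1 encodes the membrane-bound protein, and variant 2 skips exon 5 (chromosome 1, 94532321 to 94532480, 160 bases, coding, in the GENCODE annotation of GRCh38) and encodes a form without the transmembrane segment, known as alternatively spliced tissue factor. The coding sequence across the end of exon 4 is what separates them, printed with 15 bases on each side of the junction and exon 5 in capitals.
F3 variant 1, exon 4 to exon 5: tcaagttcaggaaagAAAACAGCCAAAACA
F3 variant 2, exon 4 to exon 6: tcaagttcaggaaagaaatattctacatca

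Variant 1 was at 222, 242 and 231 FPKM (the authors' value per transcript, corrected for length and depth) in controls and 112, 107 and 110 FPKM in co-treated libraries. Variant 2 was at 10.98, 11.8 and 9.29 FPKM in controls and 6.54, 5.45 and 6.74 FPKM in co-treated libraries. Both forms were thus lower in every co-treated library. The share of variant 2 was 4.71%, 4.66% and 3.87% of F3 FPKM in controls and 5.52%, 4.83% and 5.77% in co-treated cells, a separation of the groups by a narrow margin. These shares rest on the authors' apportioning of reads, with 664 to 2079 estimated counts for variant 2.

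The other genes with several transcripts differed in how stable their shares were. The 4 TFPI transcripts that share the most distal 3' end, among them variant 1, which encodes the alpha form, made up 86.0% to 88.4% of TFPI FPKM in controls and 90.1% to 91.1% in co-treated cells. For PLAU, variant 1 held 87.5 ± 1.77% and 84.7 ± 1.43% of FPKM in the 2 groups, with overlapping libraries. PLAU variant 3 held 6.13 ± 1.13% and 9.64 ± 1.40%, without overlap. PLAT variant 1 held 83.9 ± 7.11% and 89.7 ± 2.66%, with overlapping libraries. TFPI2 variant 1 held 64.0 ± 8.84% and 55.8 ± 7.58%, with overlapping libraries. PLAUR was the least stable of all: of its 12 transcripts, predicted model X4 held 34.4%, 38.5% and 33.3% of FPKM in control replicate 1 and co-treated replicates 1 and 2, and was listed at 0 in the other 3 libraries. Those 3 are also the libraries with the largest totals, and the part of depth in this was not tested. The sum of X4 and predicted model X2 ranged from 46.5% to 63.3% over both groups, so single PLAUR transcripts are not compared. F2R and THBD each had 1 expressed transcript, and F2RL1 held 97.0% to 99.2% of its FPKM in 1.

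**Figure D3:**
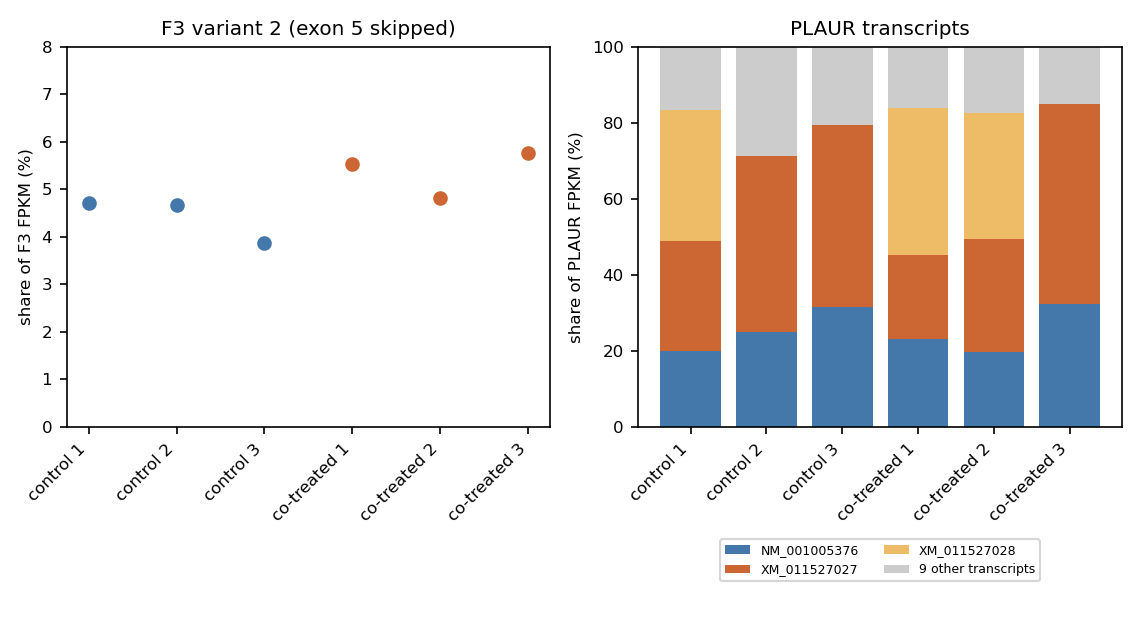
Left, share of F3 FPKM (percent, y axis) held by the variant that skips exon 5, in each control (blue) and co-treated (orange) library; the control points lie at 3.87% to 4.71% and the co-treated points at 4.83% to 5.77%. Right, stacked shares of PLAUR FPKM by transcript in the same libraries, where predicted model X4 (XM_011527028) is listed at 0 in 3 libraries that span both groups.

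Around these genes, 121 others of coagulation, anticoagulation, plasminogen activation and receptor signalling were listed by role, of which 92 passed the filter. Of the 92, 36 rose and 17 fell at an adjusted p of 0.05 (edgeR, as above), or 57.6% against 33.7% of all tested genes, with a median log2 fold change of 0.07 against 0.00. On the log2(TPM + 1) scale 43 rose and 7 fell, where all genes were split 4516 higher to 1339 lower in place of 2743 to 2835. Earlier results of these data, among them those on EGR1, FOS, FOSL1, JUN and JUNB, were known when the lists were drawn up. Nothing is therefore read from the share of called companion genes beside that of all tested genes. Adjusted p-values below are from the same edgeR test, and unless stated otherwise the 3 values of one group lay outside those of the other.

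**Figure D4:**
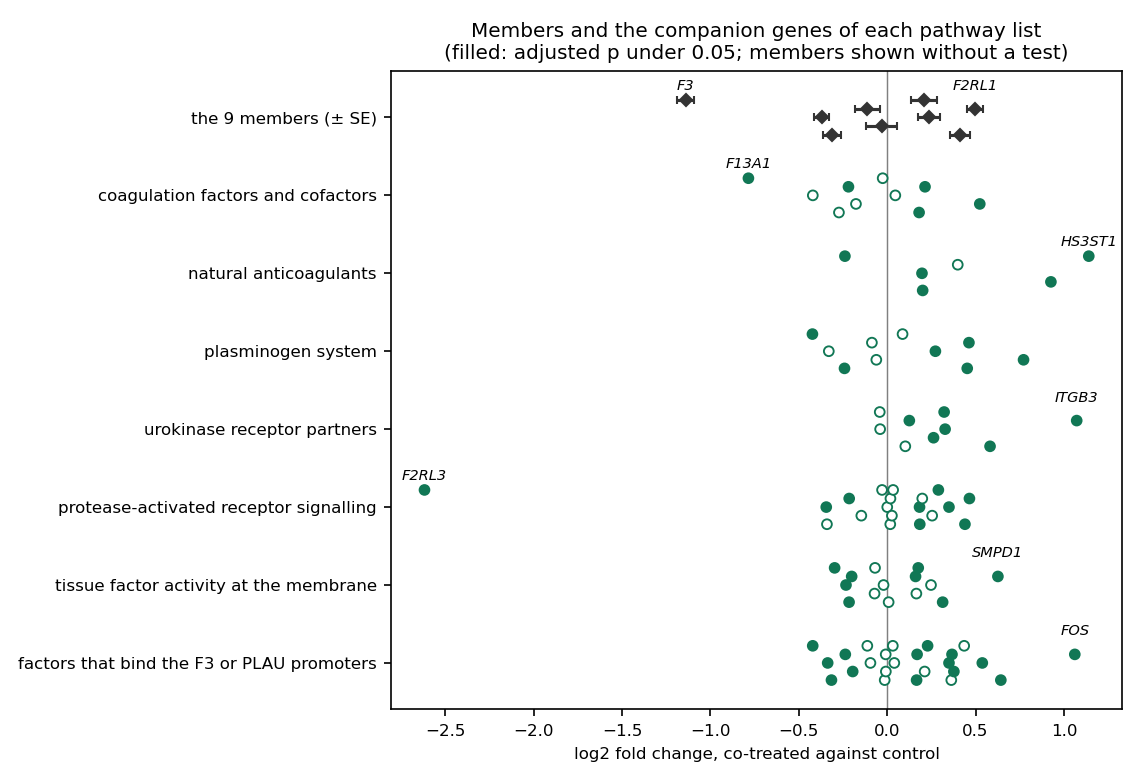
Log2 fold change (x axis) of the 9 genes, with SE bars, and of the 92 tested companion genes by list (y axis); filled circles passed an adjusted p of 0.05 and open circles did not. F2RL3, at -2.62, is the lowest point of all lists.

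Among inhibitors of the plasminogen activators, SERPINE2, which encodes protease nexin 1, an inhibitor of thrombin and urokinase, rose by 0.45 ± 0.06 to 29.3 ± 1.14 CPM (edgeR adjusted p = 0.000219). SERPINI1, the inhibitor of tissue-type activator called neuroserpin, rose from 5.04 ± 0.291 to 8.58 ± 0.945 CPM. SERPINB2, another urokinase inhibitor, held 9, 19 and 8 estimated counts in controls, was listed at 0 in all co-treated libraries and did not pass the filter. PLG, which encodes plasminogen, was listed at 0 in all 6 libraries. Of the 10 tested genes of the plasminogen system list 4 rose and 2 fell; MRC2, a collagen receptor that associates with the urokinase receptor, rose from 38.9 ± 1.43 to 53.7 ± 1.13 CPM, and ENO1, a glycolytic enzyme that binds plasminogen at the surface, fell by 0.24 ± 0.04 on the log2 scale. The ENO1 call was lost on the TPM scale (limma adjusted p = 0.0806 to 0.225).

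Of 9 tested partners of the urokinase receptor, 6 rose and 0 fell. ITGB3, the beta subunit of a vitronectin-binding integrin, rose from 5.31, 6.55 and 5.77 CPM to 12.8, 13.01 and 11.5 CPM, a log2 fold change of 1.07 ± 0.09 (edgeR adjusted p = 2.97e-05). ITGB5, another integrin beta subunit that pairs with the same alpha chain, rose from 56.7 ± 2.25 to 84.9 ± 2.46 CPM. ITGA3, an alpha subunit of laminin-binding integrins, rose from 505 ± 19.9 to 633 ± 13.8 CPM. PLAUR itself, as given above, was lower while these partners rose.

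Receptor signalling genes included the most changed gene of all 7 lists. F2RL3, which encodes the thrombin receptor PAR4, fell from 1.30, 1.501 and 1.76 CPM to 0.184, 0.194 and 0.340 CPM, a log2 fold change of -2.62 ± 0.27 (edgeR adjusted p = 7.82e-05). It is a scarce transcript, with 72 to 123 estimated counts in controls and 10 to 25 in co-treated libraries, and on the log2(TPM + 1) scale, which compresses low values, its change was -0.75. F2RL2, which encodes PAR3, was at 2.70 ± 0.186 and 2.44 ± 0.109 CPM and did not pass (log2 fold change -0.15 ± 0.12, edgeR adjusted p = 0.391). The 4 receptors of the family thus had log2 fold changes of 0.50 (F2RL1), 0.21 (F2R), -0.15 (F2RL2) and -2.62 (F2RL3). Of the 19 tested genes in this list, 6 rose and 3 fell. PLCB1, a phospholipase driven by Gq proteins, rose by 0.47 ± 0.10 (a call lost with log2(TPM + 1) and no filter, limma adjusted p = 0.0582) and BICD1, an adaptor that binds PAR1, by 0.35 ± 0.07. The arrestins, which end receptor signalling, went opposite ways: ARRB1 rose from 39.6 ± 0.744 to 53.7 ± 2.94 CPM and ARRB2 fell from 16.5 ± 1.21 to 12.98 ± 0.783 CPM. ARHGEF1, a guanine nucleotide exchange factor, fell by 0.22 ± 0.05 on the log2 scale, a call lost on the TPM scale (limma adjusted p = 0.178 to 0.188).

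The soluble coagulation factors that work with tissue factor were hardly detected. F7 and F10, which encode factors VII and X, were listed at 0 in all libraries, and 11 of 21 genes in that list did not pass the filter. Of the 10 tested, 3 rose and 2 fell. F13A1, the fibrin-crosslinking transglutaminase subunit, fell from 9.48 ± 0.492 to 5.50 ± 0.378 CPM, and F8, the factor VIII gene, rose from 1.78 ± 0.0520 to 2.56 ± 0.0430 CPM. GGCX, the vitamin K-dependent carboxylase, rose by 0.21 ± 0.04 and MCFD2, a cargo receptor for factors V and VIII, by 0.18 ± 0.04. VKORC1, the vitamin K epoxide reductase, fell by 0.22 ± 0.06 on the log2 scale, a call lost on the TPM scale and with the length trend removed (adjusted p = 0.154 to 0.249 with limma or edgeR).

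Of 6 tested genes in the natural anticoagulant list, 4 rose and 1 fell. HS3ST1, which makes the heparan sulfate motif that binds antithrombin, rose from 0.966 ± 0.173 to 2.14 ± 0.384 CPM (log2 fold change 1.14 ± 0.19). SERPINA5, in this list although its product inhibits protein C, rose from 0.676 ± 0.107 to 1.29 ± 0.0258 CPM. It is a scarce transcript, at 37 to 55 estimated counts in controls and 68 to 94 in co-treated libraries. ANXA5, which shields phosphatidylserine on membranes, rose from 524 ± 16.3 to 602 ± 14.1 CPM. PROCR, the protein C receptor, was at 50.5 ± 4.23 and 42.8 ± 4.97 CPM (edgeR adjusted p = 0.0490), a call lost in 12 of 17 alternatives, where its adjusted p reached 0.526. Among those were the fits without co-treated replicate 1 (0.133), co-treated replicate 3 (0.0612), control replicate 2 (0.0945) and control replicate 3 (0.172).

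Genes that bear on tissue factor activity at the membrane went both ways, 4 of 14 upward and 4 downward. SMPD1, the acid sphingomyelinase, rose from 19.6 ± 1.04 to 30.3 ± 1.89 CPM, and ANO6, a lipid scramblase, rose by 0.18 ± 0.05 on the log2 scale. The ANO6 call was lost without co-treated replicate 1 (edgeR adjusted p = 0.0636), without control replicate 3 (0.0775) and with the length trend removed (0.158). TXN, a thioredoxin, and PDIA6, a disulfide isomerase, fell by 0.30 ± 0.07 and 0.23 ± 0.04 on the log2 scale. Both calls were lost on the TPM scale (limma adjusted p = 0.0659 to 0.161).

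Of 24 genes for transcription factors that bind the F3 or PLAU promoters, 9 rose and 5 fell. Within the AP-1 family members went both ways. The letters TGANTCA printed above are sequence matches, and binding was not measured. FOSL1 fell from 254 ± 5.41 to 190 ± 8.08 CPM and JUN from 184 ± 4.91 to 148 ± 3.03 CPM. JUNB rose from 18.7 ± 0.952 to 29.3 ± 2.26 CPM, JUND from 14.6 ± 0.516 to 21.1 ± 0.943 CPM and FOS from 2.93 ± 0.723 to 6.09 ± 2.04 CPM. The FOS call was lost with log2(TPM + 1) and no filter (limma adjusted p = 0.0578). TEAD4, a DNA-binding partner of YAP, fell by 0.34 ± 0.05 on the log2 scale (edgeR adjusted p = 0.000664).

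The genes whose profiles over the 6 libraries lay nearest to that of F3 were sought among 10656 tested genes whose higher group reached 5 CPM. By Euclidean distance between mean-centred log2 CPM, the 5 nearest were SH2D5, RAET1E, CYP1B1, AOX1 and TM4SF18, at distances of 0.12 to 0.24. SH2D5 went from 15.2 ± 0.653 to 7.18 ± 0.478 CPM, RAET1E, a ligand of an activating natural killer cell receptor, from 17.7 ± 1.03 to 8.05 ± 0.326 CPM, and CYP1B1, a cytochrome P450 gene, from 21.4 ± 1.06 to 10.4 ± 0.290 CPM. AOX1, which encodes aldehyde oxidase, went from 104 ± 1.48 to 43.1 ± 2.62 CPM and TM4SF18 from 53.6 ± 2.42 to 25.5 ± 2.17 CPM. Their Pearson correlations with F3 were 0.99 to 1.00 over 6 libraries that share 2 groups, so likeness here mostly means a similar difference between the groups.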

How the data were processed

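RNA sequencing of total RNA covered 6 MDA-MB-231/RR samples; groups and replicate numbers come from the sample titles, with columns that start with Con taken as the controls and Mo as melatonin plus oTR. Trimmomatic 0.38, HISAT2 2.1.0, Bowtie2, SAMtools 1.9, StringTie 2.1.3b and GRCh38 are named, without roles, per the submitters' processing notes; no source used here gives strandedness. The authors deposited estimated counts (whole numbers, used as they stand), FPKM and TPM per gene and per transcript. LOC105373786 overlaps TFPI and C10orf55 overlaps PLAU, at no more than 17 and 139 estimated counts in any library.

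Genes were filtered with filterByExpr (minimum count 10) and tested by edgeR's quasi-likelihood test (version 4.0.16, R 4.3.3) after relative log expression scaling, which the labels name. The SE of a log2 fold change was derived from that test, as the size of the change divided by the square root of its F statistic. P-values were adjusted by Benjamini-Hochberg, and calls made under 0.05. The procedure was also run on simulated data in which few genes changed, as many up as down. That run cannot speak to scaling where many genes change. The alternatives used DESeq2 1.42.0, limma 3.58.1 (voom on counts, and log2 TPM with a pseudocount of 1 or 0.1), other filters or scaling, a fit with each library's trend of counts on gene length removed (lowess, span 0.3), the replicate number as a block, and each library left out. The genes described and the companion lists were chosen with earlier results of these data known. Companion genes are named where called, at 1 CPM or more and without overlap, up to 3 rises and 3 falls per list; SERPINE2, SERPINB2, F2RL2, F2RL3, F7, F10 and PLG are named in any case, and some genes this rule names are not reported here. For the 5 genes nearest to F3, symbols of uncharacterised, small RNA or antisense genes were left out. Within groups, libraries differed beyond counting error (chi-square over its degrees of freedom, 11.6 to 19.0).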

Additional observations from a re-analysis of the deposited data

How the results depend on the processing

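Of the 17 alternatives, those on the TPM scale and library size alone moved values most. With log2(TPM + 1), 4516 genes were higher and 1339 lower, with log2(TPM + 0.1) 4490 and 1338, and without a filter 968 were lower; 7, 7 and 8 companion genes then fell. On the log2(TPM + 1) scale, with or without the filter, log2 fold changes were -1.01 for F3, 0.54 for TFPI2, 0.017 for PLAT, -0.24 for PLAU, -0.20 for PLAUR and 0.62 for F2RL1. With log2(TPM + 0.1) they were -1.01, 0.54, 0.018, -0.24, -0.20 and 0.63, and 0.10 for THBD and 0.33 for F2R. Library size alone gave -1.08 for F3, -0.31 for PLAU and 0.56 for F2RL1, and 3816 genes higher to 2065 lower in all. Removal of the length trend gave -0.23 for PLAUR. TMM factors, DESeq2, limma-voom, the other count filters and each library left out moved none of the 9 log2 fold changes by as much as 1 SD between replicates; with a library left out, 4223 to 4820 genes and 45 to 51 companion genes were called.

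The replicate number as a block raised the calls to 6367 in all and 56 companion genes. The numbers do not pair the samples by the labels, and deviations of same-numbered libraries correlated at 0.0691, 0.000448 and -0.0357; control 1 alone correlated best with its own number. With 3 libraries a group, precision is limited by their number, and low genes such as F2RL3 by depth.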
